A study of Rattus norvegicus with 12 samples.

Results

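Interleukins and their receptors were followed in whole lung of wild-type rats given monocrotaline, an alkaloid that injures lung vessels and is used to produce experimental pulmonary hypertension. The members were the genes whose symbol begins with Il and a digit, leaving out Il33, Il1rl1, Il1rap, Il6, Il6r and Il6st, with at least 10 counts in at least 4 of the 12 libraries. By this rule 51 of the 32883 genes in the deposited table were members: 17 ligands, 28 receptor chains, 5 soluble antagonists or decoy receptors and 1 enzyme. Another 23 genes with such symbols lay below the count minimum. The groups were monocrotaline with ferrostatin-1 (MCT-Fer-1), monocrotaline with the ferrostatin-1 vehicle (MCT-Vehicle) and Control, with 4 libraries each. Ferrostatin-1 is a radical-trapping compound that blocks ferroptosis, in which cells die of lipid peroxidation, and it or its vehicle was given for 10 days. All samples carry a time label of 25 days and the genotype label WT. Strain, sex, age, the monocrotaline dose and what the Control rats received are not given in the labels, so monocrotaline and vehicle dosing cannot be told apart between MCT-Vehicle and Control.

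Interleukins are small secreted proteins through which immune, epithelial and stromal cells signal to each other. Most bind receptors made of a ligand-specific chain and a shared chain: the common gamma chain serves IL-2, IL-4, IL-7, IL-9, IL-15 and IL-21 and signals through JAK kinases and STAT factors, whereas IL-1 and IL-17 family receptors signal through adaptors that lead to NF-kappaB. Soluble binding proteins and decoy receptors hold back some of the ligands. In lung, IL-25 and IL-9 belong to the type 2 programme of epithelial cells, mast cells and innate lymphoid cells, and IL-1 family ligands are known from macrophages.

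Library totals ran from 11601929 to 70627239 counts in MCT-Fer-1, from 13654695 to 24016262 in MCT-Vehicle and from 16640022 to 18229992 in Control. All values below are counts scaled to library size (CPM) on TMM-scaled library sizes, so they compare 1 gene between libraries but not different genes, since transcript lengths were not used. A floor of 3 counts equals 0.0419 CPM in the deepest library and 0.258 CPM in the shallowest, which covers counting error only. The summed CPM of the members was 1150 to 1410 in MCT-Fer-1, 1290 to 1380 in MCT-Vehicle and 1210 to 1460 in Control. Library MCT-Vehicle 2, with 405 CPM, and library Control 4, with 247 CPM, stood apart in the sum of 10 heart-muscle markers (16.5 to 76.9 CPM in the other 10 libraries, the highest being MCT-Vehicle 3). Member results that lost their call without both are named with that value. The calls of signalling and marker genes that are not members were not checked in this way. The sample descriptions give each library of a group its own lung number, but nothing in the labels says that replicates were separate animals. The p-values therefore cover only spread among these libraries, which may be technical. In whole-lung RNA, fewer cells of a type and less RNA per cell cannot be told apart.

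Between MCT-Vehicle and Control, 8 of the 51 members passed an adjusted p of 0.05 in edgeR's quasi-likelihood test with Benjamini-Hochberg adjustment over 15257 genes. Il9r, Il2ra, Il2rg and Il18bp rose, and Il17rb, Il17rd, Il25 and Il15 fell; Il25 is in the count although it became a member through its Control libraries. These 15.7% of members lie near the 18.6% of all genes tested that were called, with 10.3% called higher and 8.28% called lower, so the count is no result about interleukins as a group. The median log2 fold change of the members was 0.17, against 0.02 for all genes tested. Values of the 4 libraries did not overlap between MCT-Vehicle and Control for 12 members (23.5%), against 21.5% of all genes tested. Of them 8 were higher, among them Il12b, and 4 lower, among them Il25, against 11.5% and 10.0% of all genes. The direction of Il25 was built into the selection, and that of Il12b partly. Between MCT-Fer-1 and Control 7 members (13.7%) were called, against 10.8% of all genes, 3 of them higher (6.67% of all genes) and 4 lower (4.12%). The lower ones include Il25 and Il24, whose direction was wholly or partly built into the selection, so this count is no result about interleukins either.

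**Figure D1:**
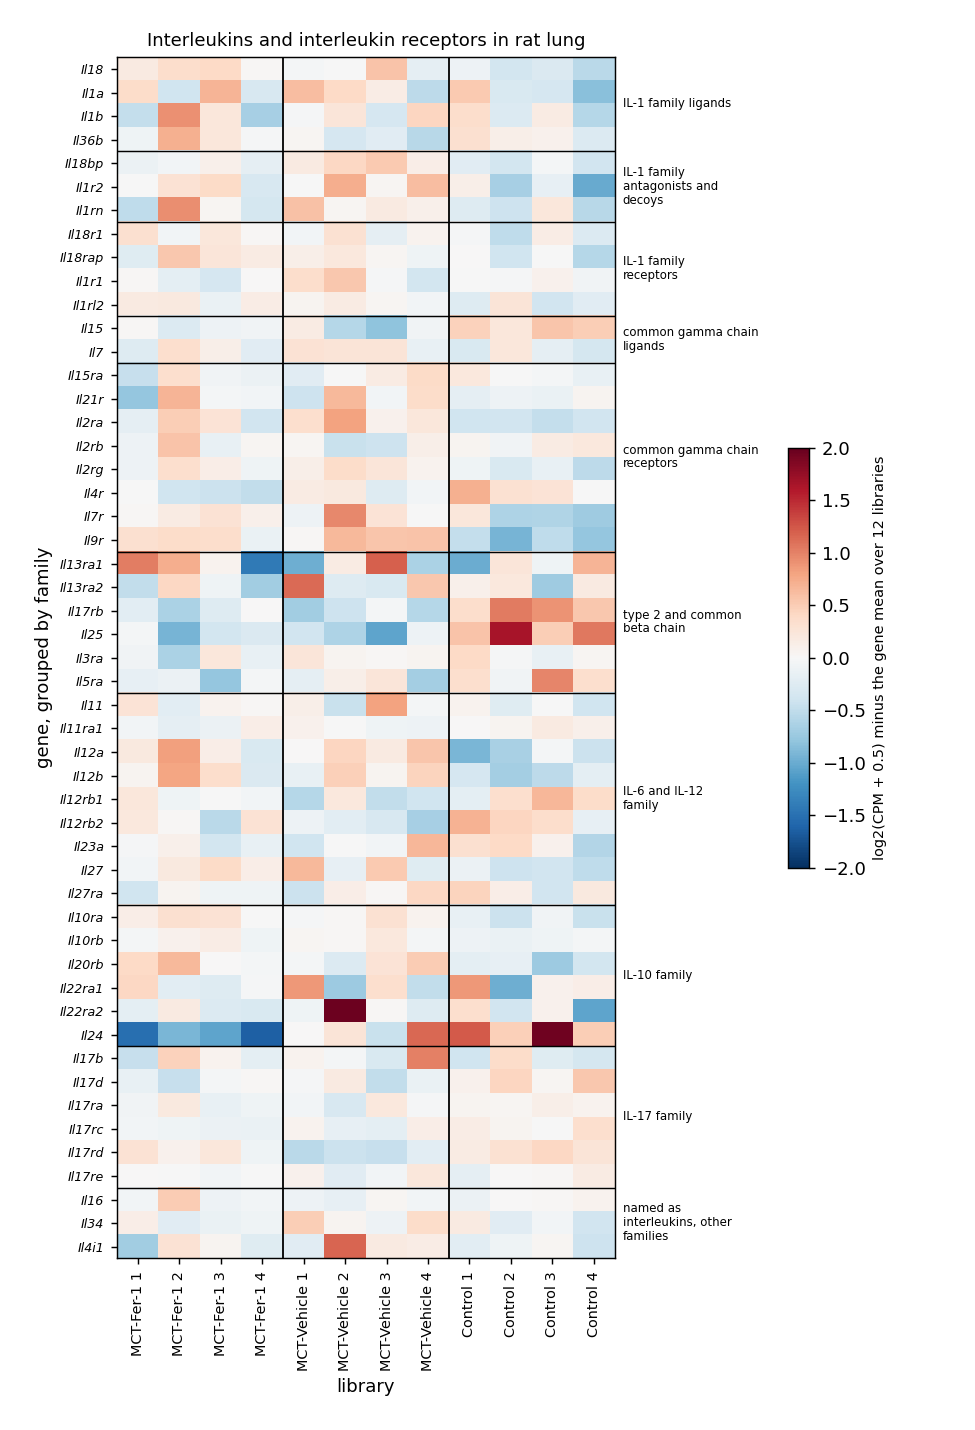
Heatmap of the 51 members (rows, grouped by family) in the 12 libraries (columns, MCT-Fer-1, MCT-Vehicle and Control from left to right); colour is log2(CPM + 0.5) minus the gene's mean over the 12 libraries, and values past the ends of the scale take the end colours. Il24 is lowest in the 4 MCT-Fer-1 libraries, Il25 and Il17rb are highest in the 4 Control libraries, and in 12 of the 51 rows the MCT-Vehicle and Control values do not overlap.

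The common gamma chain receptors held 3 of the 4 members that rose in MCT-Vehicle over Control: 3 of these 8 receptor chains were called higher and 0 lower, against 10.3% and 8.28% of all genes, and without both heart-muscle libraries Il9r alone of the 3 was called. Il9r (ENSRNOG00000020630), the specific chain of the IL-9 receptor, stood at 3.62, 3.73, 3.67 and 2.50 CPM in MCT-Fer-1, at 2.82, 4.62, 4.32 and 4.36 CPM in MCT-Vehicle and at 1.87, 1.22, 1.81 and 1.42 CPM in Control. Every library of either monocrotaline group lay above every Control library. Its log2 fold change was 1.35 ± 0.24 (SE) in MCT-Vehicle over Control (edgeR adjusted p = 0.00213) and 1.09 ± 0.24 in MCT-Fer-1 over Control (adjusted p = 0.0112). Between MCT-Fer-1 and MCT-Vehicle the log2 difference was -0.26 ± 0.22 (adjusted p = 0.676). The ligand itself, Il9, had 0 counts in every library.

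Il2ra (ENSRNOG00000047647), the alpha chain that gives the IL-2 receptor high affinity and marks activated and regulatory T cells, had 2.93, 4.97, 4.23 and 2.50 CPM in MCT-Fer-1, 4.40, 6.30, 3.65 and 4.09 CPM in MCT-Vehicle and 2.47, 2.49, 2.29 and 2.48 CPM in Control. The 4 Control libraries were nearly level, and all MCT-Vehicle libraries lay above them, at a log2 value of 0.92 ± 0.25 (adjusted p = 0.0203, edgeR). This call was lost without MCT-Vehicle replicate 2 (adjusted p = 0.059), without Control replicate 3 (0.0559) and without both libraries high in heart-muscle markers (0.106). Il2rg (ENSRNOG00000003954), the common gamma chain, had 78.0, 105, 91.7 and 78.3 CPM in MCT-Fer-1, 90.7, 107, 98.5 and 87.1 CPM in MCT-Vehicle and 78.7, 67.0, 74.8 and 57.7 CPM in Control. Its log2 fold change in MCT-Vehicle over Control was 0.46 ± 0.12 (adjusted p = 0.015, and 0.10 without both libraries), and in MCT-Fer-1 the values overlapped both other groups.

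The other chains of this family were not called between MCT-Vehicle and Control. Il7r, the IL-7 receptor found on lymphocytes and innate lymphoid cells, averaged 11.9 ± 0.904 CPM in MCT-Fer-1, 13.7 ± 5.23 in MCT-Vehicle and 8.13 ± 2.98 in Control (SD, n = 4 each), with 1 Control library at 12.6 CPM among 3 at 6.33 to 6.86. The log2 difference between MCT-Vehicle and Control was 0.75 ± 0.26 (edgeR adjusted p = 0.0665, and 0.0115 without Control replicate 1). Il21r, Il15ra and Il2rb, which complete the receptors for IL-21, IL-15 and IL-2, differed by log2 values of 0.29, 0.09 and -0.25 in MCT-Vehicle against Control, with adjusted p-values of 0.518, 0.816 and 0.351.

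Il4r (ENSRNOG00000015441), the chain shared by the IL-4 and IL-13 receptors, gave the lowest values in MCT-Fer-1. It stood at 263, 201, 197 and 189 CPM in MCT-Fer-1, at 298, 304, 222 and 256 CPM in MCT-Vehicle and at 437, 327, 323 and 265 CPM in Control. All 4 MCT-Fer-1 libraries lay below all 4 Control libraries, the nearest pair being 263 and 265 CPM, and MCT-Vehicle overlapped both. The log2 fold change was -0.67 ± 0.16 in MCT-Fer-1 against Control (edgeR adjusted p = 0.0172), -0.35 ± 0.16 in MCT-Fer-1 against MCT-Vehicle (0.403) and -0.32 ± 0.16 in MCT-Vehicle against Control (0.174). The call against Control was lost without MCT-Fer-1 replicate 2 (0.0537) and without MCT-Fer-1 replicate 3 (0.0538).

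Among the ligands of this family, Il15 (ENSRNOG00000003439), which sustains NK cells and memory T cells, fell in MCT-Vehicle against Control. It had 11.9, 9.58, 10.9 and 11.2 CPM in MCT-Fer-1, 13.2, 7.75, 6.48 and 11.1 CPM in MCT-Vehicle and 16.3, 13.9, 17.4 and 16.7 CPM in Control. No monocrotaline library reached the lowest Control library, and the MCT-Vehicle libraries were the most widely spread. The log2 fold change was -0.73 ± 0.19 in MCT-Vehicle against Control (edgeR adjusted p = 0.0164, and 0.0898 without both heart-muscle libraries) and -0.56 ± 0.19 in MCT-Fer-1 against Control (0.0741, and 0.00895 to 0.0377 under the 5 alternatives that called it). Il7, a survival factor for lymphocytes, averaged 3.43 ± 0.792 CPM in MCT-Fer-1, 3.88 ± 0.593 in MCT-Vehicle and 3.04 ± 0.687 in Control (SD, n = 4 each), and was not called in any comparison. The remaining gamma chain ligands were hardly counted: over 4 libraries each, Il2 had 5 counts in MCT-Fer-1, 3 in MCT-Vehicle and 3 in Control, Il4 had 1 count, in Control, and Il21 had 2 counts, in MCT-Fer-1.

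The IL-25 receptor chain Il17rb fell in both monocrotaline groups against Control. This gene (ENSRNOG00000015498), whose product pairs with Il17ra to bind IL-25, had 2.84, 1.98, 2.72 and 3.38 CPM in MCT-Fer-1, 1.88, 2.40, 3.28 and 2.10 CPM in MCT-Vehicle and 4.45, 7.42, 6.68 and 5.09 CPM in Control. No monocrotaline library reached the lowest Control library. The log2 fold change was -1.30 ± 0.24 in MCT-Vehicle against Control (edgeR adjusted p = 0.00319) and -1.10 ± 0.24 in MCT-Fer-1 against Control (0.0115), and the difference between MCT-Fer-1 and MCT-Vehicle was 0.20 ± 0.24 (0.786). Its partner Il17ra, also the IL-17A receptor, averaged 201 ± 21.9 CPM in MCT-Fer-1, 198 ± 29.0 in MCT-Vehicle and 213 ± 4.63 in Control (SD, n = 4 each; adjusted p = 0.523 for MCT-Vehicle against Control). The 6 members of the type 2 and common beta chain group counted 0 higher and 2 lower, Il17rb and Il25, in each comparison with Control. Of all genes, 4.12% were lower for MCT-Fer-1 and 8.28% for MCT-Vehicle. Il25 became a member through its Control libraries, so its part of this count was built into the selection. The common beta chain itself, Csf2rb, has no Il symbol and was not counted here. It rose in MCT-Vehicle over Control (log2 fold change 1.46, edgeR adjusted p = 0.002). The other type 2 receptor chains Il3ra, Il5ra, Il13ra1 and the decoy Il13ra2 had log2 values of 0.01, -0.93, 0.10 and 0.54 in MCT-Vehicle against Control and were not called. Il13 and Il5, the effector cytokines of the same programme, were hardly counted: over 4 libraries each, Il13 had 2 counts in MCT-Fer-1, 1 in MCT-Vehicle and 6 in Control, and Il5 had 1 count, in MCT-Fer-1.

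The ligand Il25 (ENSRNOG00000016804), an IL-17 family cytokine made mainly by tuft cells of epithelia, had 6, 1, 8 and 25 counts in MCT-Fer-1, 7, 4, 0 and 9 counts in MCT-Vehicle and 19, 50, 16 and 28 counts in Control. These correspond to 0.304 ± 0.195 CPM in MCT-Fer-1, 0.238 ± 0.199 in MCT-Vehicle and 1.61 ± 0.833 in Control (SD, n = 4 each), so that several monocrotaline libraries lay near the floor while all Control libraries were above it. The gene met the count minimum through its 4 Control libraries, with only 1 of the other 8 reaching it, so that a lower level in monocrotaline lungs was built into its selection and supports nothing further. Its log2 fold change was -2.66 ± 0.66 in MCT-Vehicle against Control (edgeR adjusted p = 0.0142), a call lost without Control replicate 2 (0.0502) and without both heart-muscle libraries (0.0724); with libraries thinned to the smallest total it was called in neither comparison with Control, as it no longer passed the filter on low counts. Against Control, MCT-Fer-1 differed by -2.43 ± 0.63 (adjusted p = 0.0281), a call lost under 7 of 19 alternatives at 0.0518 to 0.0924: without MCT-Fer-1 replicate 2, 3 or 4, without Control replicate 2 or 4, without both heart-muscle libraries and with a replicate block.

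The 6 members of the IL-17 family outside this pair counted 0 higher and 1 lower in MCT-Vehicle against Control, where 8.28% of all genes were lower. The one that fell was Il17rd (ENSRNOG00000021966), a membrane protein of the IL-17 receptor family also known to restrain fibroblast growth factor signalling. It had 10.6, 9.12, 10.1 and 8.04 CPM in MCT-Fer-1, 5.76, 6.26, 6.11 and 7.40 CPM in MCT-Vehicle and 9.67, 10.7, 11.6 and 10.4 CPM in Control. The MCT-Vehicle libraries lay below all others, and the MCT-Fer-1 libraries overlapped Control. The log2 fold change was -0.73 ± 0.13 in MCT-Vehicle against Control (edgeR adjusted p = 0.00232) and -0.17 ± 0.13 in MCT-Fer-1 against Control (0.451). Il17b, Il17d, Il17rc and Il17re had log2 values between -0.44 and 0.68 in MCT-Vehicle against Control, none of them called. Il17a, the best-known ligand of the family, had 0 counts in every library, and Il17c and Il17f had 6 and 3 counts over the 4 MCT-Fer-1 libraries and 0 in both other groups.

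Of the 4 IL-1 family ligands, 0 were called in MCT-Vehicle against Control, and 1, Il18, was called higher in MCT-Fer-1 over Control, where 6.67% of all genes were. Il1b, a central inflammatory cytokine of macrophages, had 19.2, 51.1, 31.5 and 16.8 CPM in MCT-Fer-1, 26.5, 31.9, 21.2 and 36.1 CPM in MCT-Vehicle and 34.3, 22.2, 30.0 and 17.8 CPM in Control. The 3 groups overlapped, with log2 differences of 0.15 ± 0.33 in MCT-Vehicle against Control (edgeR adjusted p = 0.794) and 0.03 ± 0.33 in MCT-Fer-1 against MCT-Vehicle (0.98). Il18 (ENSRNOG00000009848), which drives interferon gamma release from T and NK cells, had 51.9, 58.6, 60.3 and 46.7 CPM in MCT-Fer-1, 44.5, 45.7, 68.0 and 40.4 CPM in MCT-Vehicle and 42.6, 35.5, 37.2 and 31.2 CPM in Control. It rose in MCT-Fer-1 over Control without overlap, by a log2 fold change of 0.57 ± 0.15 (adjusted p = 0.0338), a call lost without MCT-Fer-1 replicate 2 or 3, without Control replicate 2, 3 or 4 and without both heart-muscle libraries (0.0736 to 0.111). In MCT-Vehicle over Control the log2 value was 0.44 ± 0.16 (adjusted p = 0.0695, and 0.0405 with DESeq2, 0.0349 with a replicate block and 0.0444 without MCT-Vehicle replicate 4), with 1 Control library above 1 MCT-Vehicle library.

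Il18bp (ENSRNOG00000020150), the soluble protein that binds and neutralises IL-18, had 11.8, 12.3, 13.8 and 11.3 CPM in MCT-Fer-1, 14.5, 17.2, 18.7 and 14.1 CPM in MCT-Vehicle and 10.9, 9.85, 12.4 and 9.70 CPM in Control. The MCT-Vehicle libraries lay above all others, and MCT-Fer-1 overlapped Control. The log2 fold change in MCT-Vehicle over Control was 0.59 ± 0.13 (edgeR adjusted p = 0.00614, and 0.0516 without both heart-muscle libraries), and the difference between MCT-Fer-1 and Control was 0.20 ± 0.12 (0.356). Il1rn, the IL-1 receptor antagonist, had 36.3, 99.9, 53.2 and 40.6 CPM in MCT-Fer-1, 78.6, 53.4, 59.0 and 55.6 CPM in MCT-Vehicle and 43.2, 39.1, 61.0 and 35.1 CPM in Control, a spread that left no call (adjusted p = 0.303 for MCT-Vehicle against Control). The 5 antagonists and decoys Il1rn, Il1r2, Il18bp, Il22ra2 and Il13ra2 all had a positive log2 value in MCT-Vehicle against Control (0.47 to 1.22, median 0.59), as had 7996 of 15257 genes, and all 5 had a negative one in MCT-Fer-1 against MCT-Vehicle (-1.19 to -0.10, median -0.39), as had 7958 genes. The outer values 1.22 and -1.19 belong to Il22ra2, which was 5.94 CPM in MCT-Vehicle 2, a library high in heart-muscle markers, and 0.892 to 1.19 CPM in the other MCT-Vehicle libraries; the other 4 ran from 0.47 to 0.79 and from -0.75 to -0.10. Only Il18bp was called in the first comparison and none in the second. Since both comparisons share the MCT-Vehicle libraries, their opposite signs are not separate observations.

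The IL-1 family receptors were not called in any comparison. Il1r1, the signalling receptor of IL-1, had 81.0, 70.1, 63.3 and 80.8 CPM in MCT-Fer-1, 102, 116, 78.8 and 62.0 CPM in MCT-Vehicle and 79.4, 78.9, 85.1 and 76.4 CPM in Control. The MCT-Vehicle libraries spanned the other groups' values on both sides. Il18r1, Il18rap and Il1rl2, receptor chains for IL-18 and the IL-36 ligands, had log2 values of 0.20, 0.31 and 0.20 in MCT-Vehicle against Control, with adjusted p-values of 0.407, 0.249 and 0.403.

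**Figure D2:**
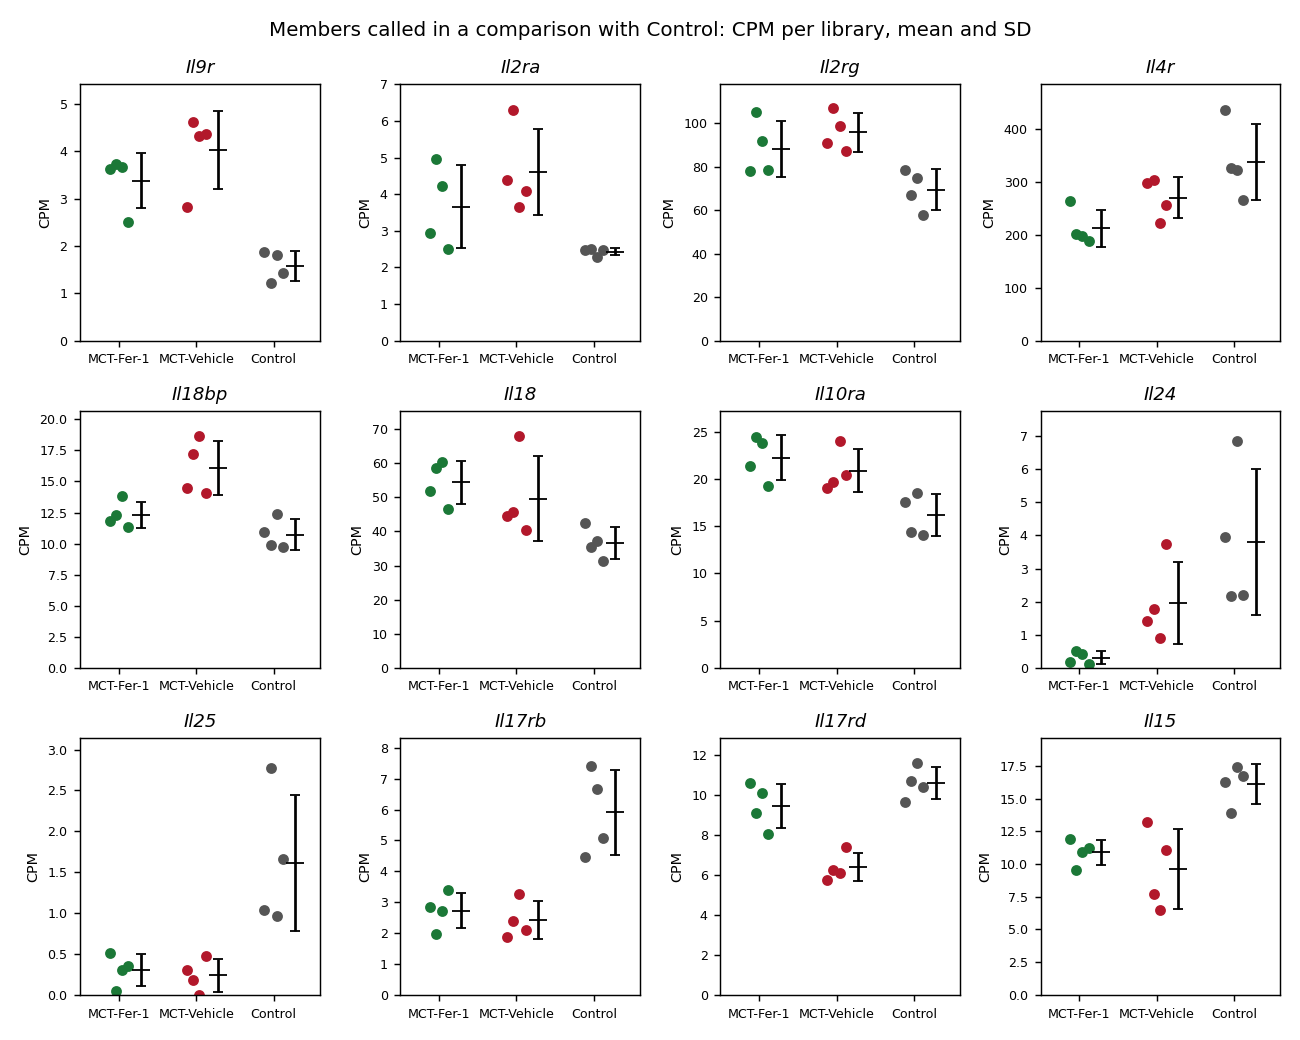
CPM per library (points) of the 12 members called in a comparison with Control, for MCT-Fer-1, MCT-Vehicle and Control from left to right, with the group mean and SD (n = 4) beside the points; axes start at 0. Il9r lies higher and Il17rb and Il25 lower in both monocrotaline groups than in Control, whereas Il24 averages 0.302 CPM in MCT-Fer-1, against 1.95 in MCT-Vehicle and 3.79 in Control.

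In the IL-10 family, Il24 (ENSRNOG00000004470), a cytokine that signals through receptors containing Il20rb, was lowest in the ferrostatin-1 group. It had 2, 11, 11 and 8 counts in MCT-Fer-1, 33, 39, 12 and 71 counts in MCT-Vehicle and 72, 39, 114 and 37 counts in Control, or 0.302 ± 0.19 CPM in MCT-Fer-1, 1.95 ± 1.24 in MCT-Vehicle and 3.79 ± 2.21 in Control (SD, n = 4 each). The 8 counts of the deepest MCT-Fer-1 library equal 0.112 CPM, and every MCT-Fer-1 library lay below every other library. The gene met the count minimum in 4 MCT-Vehicle and 4 Control libraries but in only 2 MCT-Fer-1 libraries, so its direction was partly built into the selection. The log2 fold change in MCT-Fer-1 against Control was -3.69 ± 0.61 (edgeR adjusted p = 0.00241), and in MCT-Vehicle against Control it was -0.95 ± 0.52 (0.231) with overlapping values. Il10ra (ENSRNOG00000016308), the ligand-binding chain of the IL-10 receptor on leukocytes, had 21.4, 24.5, 23.9 and 19.3 CPM in MCT-Fer-1, 19.1, 19.7, 24.1 and 20.5 CPM in MCT-Vehicle and 17.6, 14.4, 18.5 and 14.1 CPM in Control. It rose in MCT-Fer-1 over Control by a log2 value of 0.46 ± 0.12 (adjusted p = 0.027), and in MCT-Vehicle over Control the value was 0.37 ± 0.12 (0.0507). The call was lost without MCT-Fer-1 replicate 2 or 3, without Control replicate 2 or 4, without both heart-muscle libraries and with libraries thinned to the smallest total (0.0546 to 0.0958). The ligand Il10 itself had 8 counts over the 4 MCT-Fer-1 libraries, 4 in MCT-Vehicle and 5 in Control.

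The calls of 4 members held under each of the 20 alternative analyses: Il9r and Il17rb against Control in both monocrotaline groups, Il17rd in MCT-Vehicle against Control and Il24 in MCT-Fer-1 against Control. The 300 bases around their annotated gene starts, from RefSeq on the rat build GRCr8, are shown, each on the gene's own strand, because these are the members whose calls held; capitals mark the letters TTCNNNGAA, the spaced palindrome that STAT factors are known to bind.
Il24, chr13:44910711-44911010, minus strand: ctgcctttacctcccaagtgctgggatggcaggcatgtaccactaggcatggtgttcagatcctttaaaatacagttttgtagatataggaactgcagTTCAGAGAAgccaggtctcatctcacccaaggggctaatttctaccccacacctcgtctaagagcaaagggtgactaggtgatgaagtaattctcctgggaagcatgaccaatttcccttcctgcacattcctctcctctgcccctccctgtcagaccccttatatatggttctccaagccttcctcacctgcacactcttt
Il9r, chr10:15935906-15936205, plus strand: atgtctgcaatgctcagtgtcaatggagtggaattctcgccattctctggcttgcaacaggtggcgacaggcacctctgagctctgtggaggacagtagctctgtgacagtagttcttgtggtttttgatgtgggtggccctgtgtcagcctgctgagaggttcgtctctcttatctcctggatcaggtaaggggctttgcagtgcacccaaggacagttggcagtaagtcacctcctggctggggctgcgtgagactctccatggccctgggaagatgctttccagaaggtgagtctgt
Il17rb, chr16:5200608-5200907, minus strand: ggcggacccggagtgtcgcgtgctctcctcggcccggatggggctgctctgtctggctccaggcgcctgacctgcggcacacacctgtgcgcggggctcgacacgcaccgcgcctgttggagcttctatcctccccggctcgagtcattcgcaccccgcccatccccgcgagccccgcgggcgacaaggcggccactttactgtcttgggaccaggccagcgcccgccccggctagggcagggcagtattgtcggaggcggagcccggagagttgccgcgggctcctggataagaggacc
Il17rd, chr16:2234922-2235221, plus strand: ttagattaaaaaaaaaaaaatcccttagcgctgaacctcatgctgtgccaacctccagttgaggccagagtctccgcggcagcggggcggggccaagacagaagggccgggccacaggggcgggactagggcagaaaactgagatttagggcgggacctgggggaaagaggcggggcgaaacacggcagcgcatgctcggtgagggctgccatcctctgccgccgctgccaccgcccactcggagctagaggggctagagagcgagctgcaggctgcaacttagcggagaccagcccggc
The Il24 window holds 1 match, beginning 152 bases before the gene start, and the windows of Il9r, Il17rb and Il17rd hold 0. The motif reads alike on both strands, and it occurs in 8.87% of 33469 RefSeq rat promoters of this length and in 6 of the 39 members that have one (15.4%): Il10rb, Il12rb2, Il17d, Il18r1, Il24 and Il36b. The letters TGANTCA, also a palindrome and known as the AP-1 motif, occur in 7.33% of all promoters and in 6 of the 39 (Il11, Il15, Il15ra, Il16, Il18 and Il1a). The letters TATAAA, searched on both strands, occur in 14.2% of all promoters and in 6 of the 39 (Il12a, Il12rb1, Il1a, Il1b, Il1rn and Il2ra). A match is a description of letters and not a measured binding site.

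The IL-6 and IL-12 family held 9 members and no call. The IL-12 subunits Il12a and Il12b lay higher in all 4 MCT-Vehicle libraries than in all 4 Control libraries, at low levels: Il12a averaged 1.38 ± 0.632 CPM in MCT-Fer-1, 1.43 ± 0.321 in MCT-Vehicle and 0.625 ± 0.296 in Control, and Il12b averaged 0.694 ± 0.382 CPM in MCT-Fer-1, 0.652 ± 0.236 in MCT-Vehicle and 0.23 ± 0.107 in Control (SD, n = 4 each). Their edgeR adjusted p-values for MCT-Vehicle against Control were 0.0633 and 0.0729, at log2 values of 1.19 ± 0.41 and 1.49 ± 0.54. The receptor chains Il12rb1 and Il12rb2 had log2 values of -0.82 ± 0.33 (0.101) and -0.73 ± 0.24 (0.0525) in the same comparison. Il11, a cytokine linked to fibroblast activation, averaged 0.592 ± 0.148 CPM in MCT-Fer-1, 0.695 ± 0.458 in MCT-Vehicle and 0.457 ± 0.141 in Control (adjusted p = 0.455 for MCT-Vehicle against Control). Il12b and Il27 met the count minimum through 3 MCT-Fer-1 and 2 MCT-Vehicle libraries and 0 Control libraries, so their direction was partly built into the selection.

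Among interleukins by name only, Il34, a second ligand of the macrophage growth factor receptor Csf1r, had 30.9, 23.9, 25.6 and 26.4 CPM in MCT-Fer-1, 39.8, 29.4, 26.2 and 36.5 CPM in MCT-Vehicle and 32.0, 24.1, 27.0 and 21.4 CPM in Control. The groups overlapped, and the edgeR adjusted p was 0.137 in MCT-Vehicle against Control and 0.427 in MCT-Fer-1 against MCT-Vehicle. Il16, a chemoattractant for CD4 cells, averaged 72.8 ± 15.8 CPM in MCT-Fer-1, 64.7 ± 3.80 in MCT-Vehicle and 67.9 ± 3.82 in Control (SD, n = 4 each), with adjusted p-values of 0.587 for MCT-Fer-1 against MCT-Vehicle and 0.726 for MCT-Vehicle against Control. Il4i1, a secreted amino acid oxidase induced by IL-4, had a log2 value of 0.67 ± 0.33 in MCT-Vehicle against Control (0.189).

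The comparison of MCT-Fer-1 with MCT-Vehicle asks what ferrostatin-1 changed in monocrotaline lungs. No member passed the threshold in edgeR's quasi-likelihood test, the lowest adjusted p being 0.158, and 0 of 15257 genes did. At an unadjusted p under 0.05 there were 2 members higher and 3 lower, 5 in all (9.80%), against 5.85% of all genes higher and 6.17% lower. The median log2 value of the members was -0.07, against -0.01. Limma voom called 0 members, and DESeq2 called Il17rd higher (adjusted p = 0.0169) and Il24 lower (0.00209). Values did not overlap for 3 members (5.88%), against 6.10% of all genes, of which 3.11% were higher and 3.00% lower. Il17rd lay higher in MCT-Fer-1, at a log2 value of 0.56 ± 0.13 (edgeR adjusted p = 0.163), and Il24 and Il18bp lay lower, at -2.74 ± 0.61 (0.158) and -0.39 ± 0.12 (0.268). For Il24 this direction was partly built into the selection. Il36b, an IL-1 family ligand of epithelia, had 1.29, 2.58, 1.70 and 1.36 CPM in MCT-Fer-1, 1.45, 0.997, 1.12 and 0.787 CPM in MCT-Vehicle and 1.87, 1.55, 1.5 and 1.06 CPM in Control. Its MCT-Fer-1 and MCT-Vehicle values overlapped, at a log2 difference of 0.66 ± 0.31 (0.412).

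**Figure D3:**
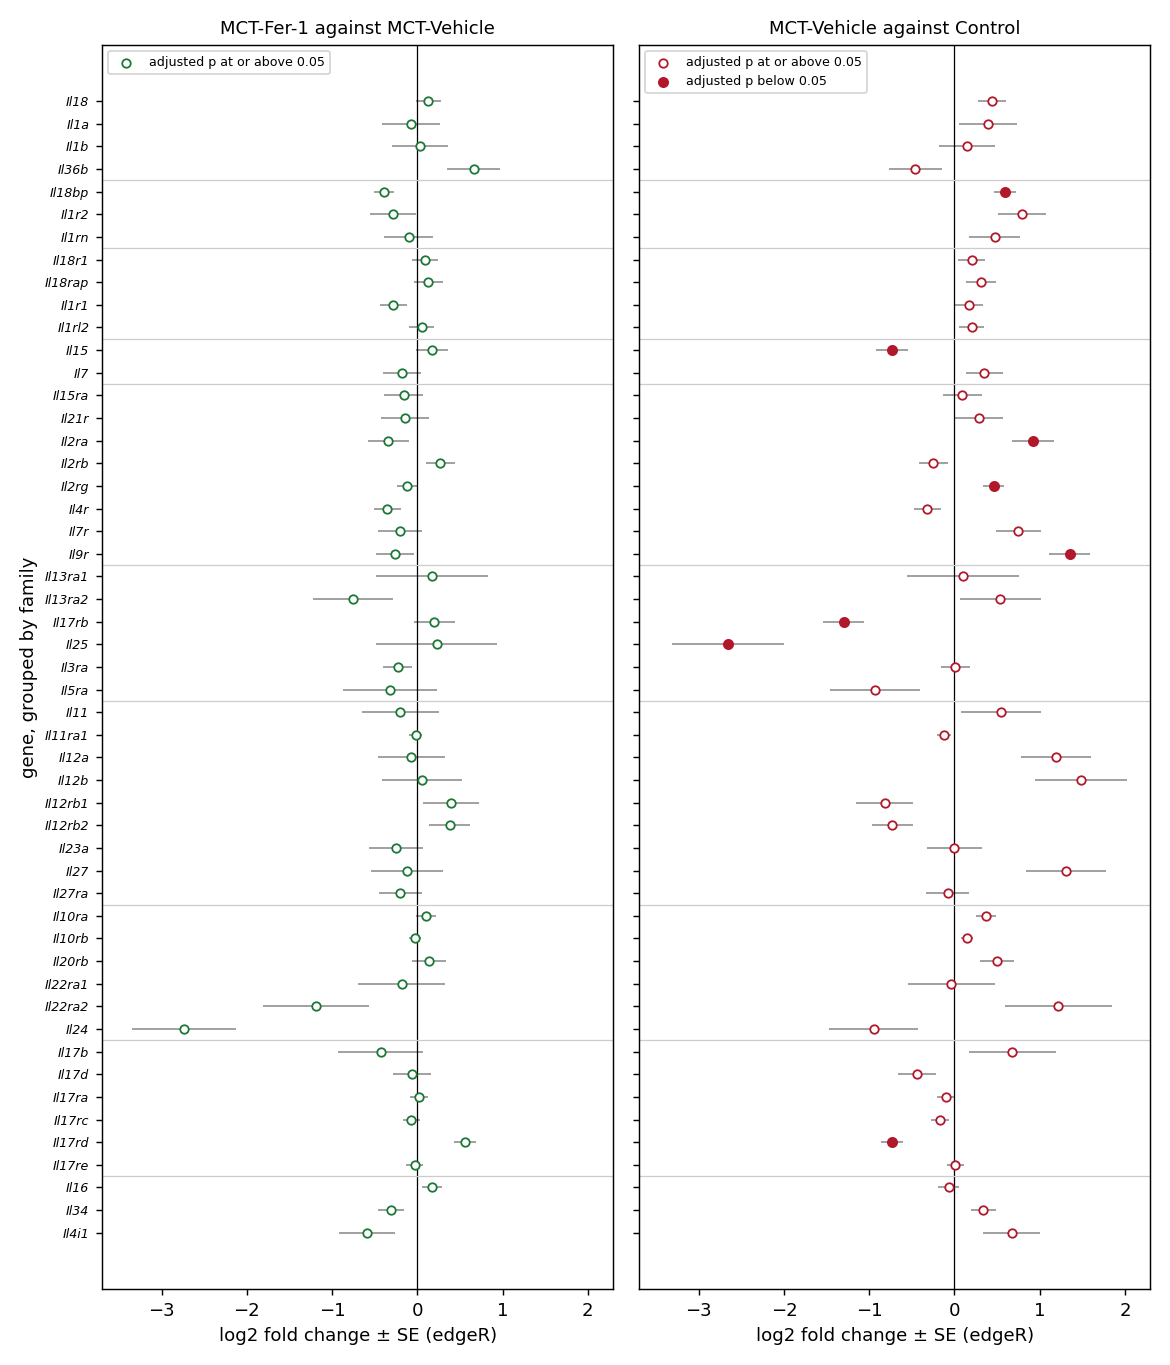
Log2 fold change ± SE from edgeR of the 51 members (rows, grouped by family) in MCT-Fer-1 against MCT-Vehicle (left) and MCT-Vehicle against Control (right); filled points passed an adjusted p of 0.05. The right panel holds 8 filled points and the left none, with Il24 farthest from 0 on the left at -2.74 and Il25 on the right at -2.66.

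Both monocrotaline groups are compared with the same Control libraries, so their values for a member are given side by side and not as 2 pieces of evidence. Il9r, Il17rb and Il25 were called in both, but the lower values of Il25 were built into its selection. Il2ra had log2 values of 0.59 in MCT-Fer-1 and 0.92 in MCT-Vehicle, Il2rg 0.34 and 0.46, Il15 -0.56 and -0.73, Il18bp 0.20 and 0.59 and Il17rd -0.17 and -0.73, each against Control and each called in MCT-Vehicle alone. Il10ra (0.46 and 0.37), Il18 (0.57 and 0.44), Il4r (-0.67 and -0.32) and Il24 (-3.69 and -0.95) were called in MCT-Fer-1 alone. For none of these 9 did edgeR call the difference between MCT-Fer-1 and MCT-Vehicle, where it called no gene at all. The share of members without overlap between MCT-Fer-1 and Control was 25.5%, against 19.1% of all genes tested, with 6 higher and 7 lower, against 10.6% and 8.54% of all genes. Il27 is among the higher and Il25 and Il24 among the lower, each with a direction wholly or partly built into the selection.

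Genes through which interleukins signal were described from 3 lists. Their calls were not checked without both heart-muscle libraries. Of 21 tested JAK-STAT genes, 2 rose and 3 fell in MCT-Vehicle against Control (23.8%, against 18.6% of all genes tested, median log2 value 0.00). Jak3, the kinase bound to the common gamma chain, rose by 0.64 ± 0.11 (edgeR adjusted p = 0.00245). Stat6, the factor downstream of Il4r, fell by 0.24 (0.0231), and Stat5b fell too, with a log2 value of -0.29 (0.0248). In MCT-Fer-1 against Control 0 rose and 1 fell (4.76%, against 10.8% of all genes): Socs3, a feedback inhibitor of STAT3, averaged 14.2 ± 3.10 CPM in MCT-Fer-1, 26.7 ± 7.78 in MCT-Vehicle and 27.8 ± 8.32 in Control (SD, n = 4 each; log2 fold change -0.97 ± 0.25, adjusted p = 0.0303 against Control). Of 16 genes in the list of IL-1 and IL-17 receptor adaptors, 4 rose and 3 fell in MCT-Vehicle against Control (43.8%, against 18.6% of all genes, median -0.13). The 4 that rose were Irak1 (log2 value 0.21, edgeR adjusted p = 0.021), Myd88 (0.34, 0.0235), Zc3h12a (0.49, 0.0417) and Irak3 (0.42, 0.0458). The 3 that fell had the smallest p-values of this list. Sigirr, an inhibitory receptor of the IL-1 family, fell by 0.44 ± 0.07 (edgeR adjusted p = 0.00129), Tab2 by 0.24 ± 0.06 (0.0118) and Casp1 by 0.35 ± 0.09 (0.0124). Of 12 receptor chains and ligands without an Il symbol, 3 rose and 1 fell in the same comparison (33.3%, against 18.6% of all genes, median 0.03); the 1 that fell was Sigirr again, which is in both lists. Csf2rb, the common beta chain of the IL-3, IL-5 and GM-CSF receptors, averaged 69.2 ± 20.3 CPM in MCT-Fer-1, 83.1 ± 23.7 in MCT-Vehicle and 30.2 ± 4.66 in Control, a log2 fold change of 1.46 ± 0.24 in MCT-Vehicle over Control (0.002). In MCT-Fer-1 against MCT-Vehicle no gene of the 3 lists was called, and neither was any other gene tested.

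Mast cell and macrophage marker sums lay higher in both monocrotaline groups than in Control, and T and NK cell markers did not pass the test. Between MCT-Fer-1 and MCT-Vehicle no mast cell or macrophage marker was called, but 0 of all 15257 genes tested were. Of 12 macrophage markers, 11 had a negative log2 value and 1 a positive one there (median -0.42). At an unadjusted edgeR p under 0.05, 5 of them were lower and 0 higher, against 6.17% and 5.85% of all genes. Of 10 mast cell markers, 7 had a negative value and 3 a positive one (median -0.1). The numbers of markers called below are for MCT-Vehicle against Control, where 10.3% of all genes were called higher and 8.28% lower. Mast cell markers summed to 636 to 1100 CPM in MCT-Fer-1, 635 to 1450 in MCT-Vehicle and 389 to 435 in Control, and of 10 tested 8 rose and 2 (Kit and Gata2, both also expressed by other lung cells) fell in MCT-Vehicle against Control. Kit and Gata2 averaged 203 and 148 CPM in Control and made up most of the Control sums. Macrophage markers summed to 1340 to 1540 CPM in MCT-Fer-1, 1330 to 2100 in MCT-Vehicle and 916 to 1010 in Control, with 10 of 12 higher and 0 lower. These 2 sums were higher in every monocrotaline library than in every Control library, as were the values of Il9r, Il2ra and Il10ra. Of all genes tested, 11.5% were higher without overlap in MCT-Vehicle over Control and 10.6% in MCT-Fer-1 over Control. T and NK cell markers, 0 of 11 called, summed to 170 to 245 CPM in MCT-Fer-1, 168 to 205 in MCT-Vehicle and 178 to 227 in Control, beside which Il2ra and Il2rg rose. In MCT-Vehicle against Control 10 of these 11 markers had a negative log2 value and 1, Cd4, a positive one (0.51, edgeR adjusted p = 0.051). Endothelial markers, 1 higher and 3 lower of 7, summed to 2720 to 3690 CPM in MCT-Fer-1, 2280 to 2830 in MCT-Vehicle and 3770 to 4070 in Control. Epithelial markers, 0 of 10 called, summed to 30900 to 46000 CPM in MCT-Fer-1, 31000 to 41000 in MCT-Vehicle and 42600 to 45100 in Control, beside the members that fell. Markers of type 2 innate lymphoid cells, 2 higher and 1 lower of 6, summed to 28 to 39.4 CPM in MCT-Fer-1, 36.5 to 65.0 in MCT-Vehicle and 32.5 to 52.4 in Control. Of the other lists, neutrophil markers counted 0 higher and 2 lower of 9, eosinophil and basophil markers 0 higher and 3 lower of 5, B and plasma cell markers 1 higher and 0 lower of 8, and fibroblast and smooth muscle markers 3 higher and 0 lower of 9. No marker of any list was at 0 in every library, and their part in the interleukin results was not tested.

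**Figure D4:**
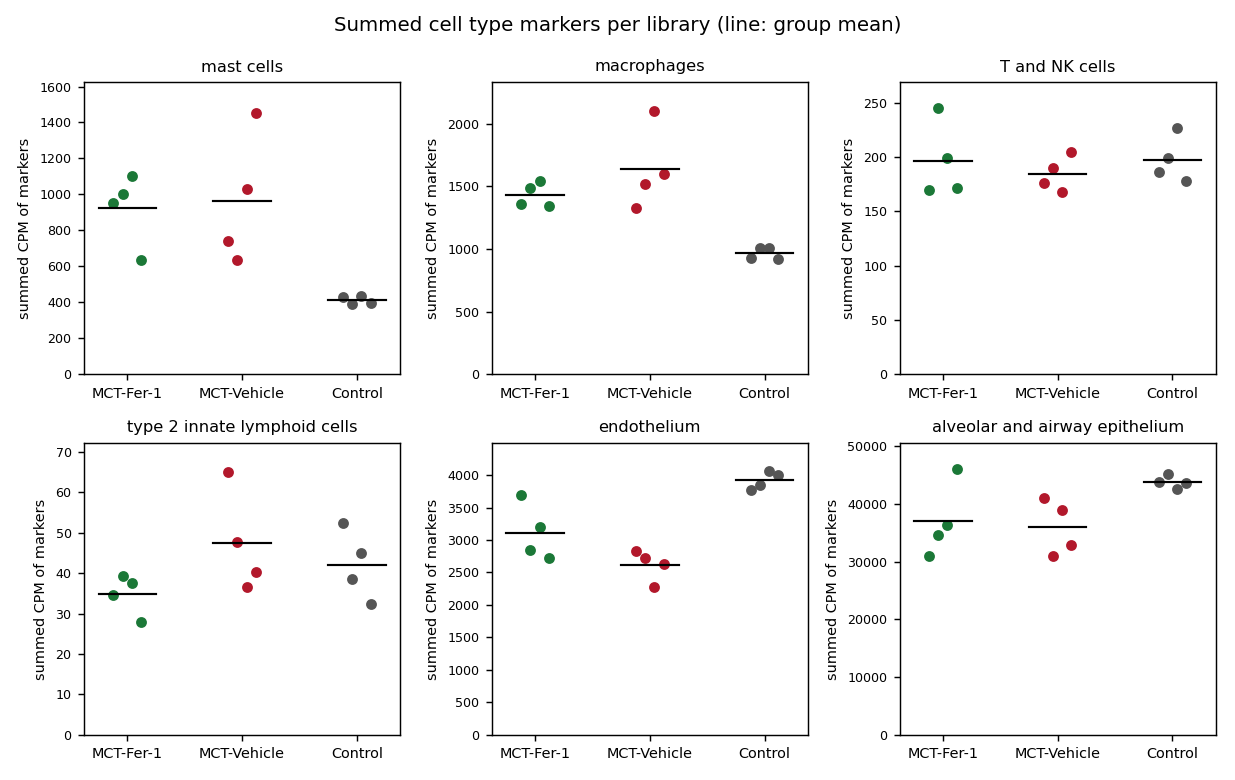
Summed CPM of the markers of 6 cell types per library (points) with the group mean (line), for MCT-Fer-1, MCT-Vehicle and Control from left to right; axes start at 0. Mast cell and macrophage sums of all monocrotaline libraries lie above the Control libraries, whose highest are 435 and 1010 CPM, and the T and NK cell sums of the 3 groups overlap. Most of each Control mast cell sum comes from Kit and Gata2, which other lung cells also express.

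Of the 23 genes below the count minimum, 9 had 0 counts in every library, and at these depths their transcripts were not detectable rather than absent. At the edge of the rule, by the fourth highest count over the libraries, Il27 with 13, Il5ra with 14 and Il11 with 15 were members, and Il23r and Il31ra with 6 each were not. Of the 51 members, 42 had at least 10 counts in every library; Il25 owed its place to the 4 Control libraries.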

How the data were processed

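Total RNA was taken from whole rat lung extracts and sequenced in 12 libraries, per the labels' protocols. The values are raw read counts for each gene as deposited, per the file headers. The authors also deposited a signal column per group, the mean of its counts, which was not used. The sources used here name no aligner, counting tool, strand setting or genome build, so reads of overlapping genes cannot be told apart. Columns were matched to samples by their sample descriptions, and groups and replicate numbers came from the titles.

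Genes were kept by filterByExpr on the 3 groups (15257 kept, 17626 left out, 99.9% of counts kept). After TMM scaling, edgeR's robust quasi-likelihood model had a coefficient for each of the groups and 9 residual degrees of freedom over the 12 libraries. P-values were adjusted by Benjamini-Hochberg over all genes and called below 0.05; the standard error is the log2 fold change divided by the square root of F. The scripts were tested on simulated data. The main test ran in edgeR 4.0.16 under R 4.3.3, and the alternatives also in DESeq2 1.42.0 and limma 3.58.1.

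Named members were those called in MCT-Vehicle against Control, the 6 smallest p-values of MCT-Fer-1 against MCT-Vehicle, members called in MCT-Fer-1 against Control, and a fixed list of well-known members; others are given by counts and ranges, and a few were added after their values were seen. In signalling lists at most 3 genes by p in a comparison were to be named. Irak1, Myd88, Zc3h12a and Irak3 were added after their values were seen. Members and lists were chosen with earlier results of these data known. Alternatives were DESeq2, limma voom with quality weights, median-of-ratios size factors, no filter, only the groups compared, a replicate block, leaving out each replicate, leaving out both libraries high in heart-muscle markers, and thinning to the smallest total. No replicate pair within a group agreed within sampling noise (lowest chi-square per degree of freedom 10.3).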

Additional observations from a re-analysis of the deposited data

Results flagged for a closer look

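Among the 22 named members, 66 groups of 4 libraries were examined for a library far from the other 3, and chance alone marks about 1 group in 20; 7 were marked. Il9r had 1 low library in each monocrotaline group, MCT-Fer-1 replicate 4 at 2.50 CPM (the others 3.62 to 3.73) and MCT-Vehicle replicate 1 at 2.82 CPM (the others 4.32 to 4.62), both above every Control library. Il4r in MCT-Fer-1 replicate 1 was 263 CPM, against 189 to 201 in the others. Il16 in MCT-Fer-1 replicate 2 was 96.4 CPM, against 63.6 to 65.7. Il7 in MCT-Vehicle replicate 4 was 2.99 CPM, against 4.13 to 4.23. Il7r in Control replicate 1 was 12.6 CPM, against 6.33 to 6.86. Il2ra in Control replicate 3 was 2.29 CPM, against 2.47 to 2.49, a gap of small size in a tight group.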

How the results depend on the processing

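Over 20 alternatives no called result reversed its direction; over 64 values of named members, 29 calls were lost and 22 gained under an alternative. Members called higher in MCT-Vehicle over Control numbered 4, against 9 with DESeq2 and 1 (Il9r) without both libraries high in heart-muscle markers, where the calls over all genes numbered 1675, against 2843. The members' median log2 value in this comparison ran from 0.10 (without MCT-Vehicle replicate 2) to 0.24 (without Control replicate 1) when 1 replicate was left out. In MCT-Fer-1 against MCT-Vehicle, DESeq2 called 1 member higher, 1 lower and 237 genes in all, edgeR on only the groups compared called 1 gene, and leaving out 1 replicate gave 0 to 41 genes (41 without MCT-Vehicle replicate 3). Members called higher in MCT-Fer-1 over Control numbered 3, against 5 with DESeq2, 6 with limma voom, 1 without both heart-muscle libraries and 1 to 4 with 1 replicate left out, where only Il9r stayed without MCT-Fer-1 replicate 2 or 3 or Control replicate 2 or 4. Those called lower ran from 2 to 5 (2 without MCT-Fer-1 replicate 2 or 3), and all genes called from 977 to 1714, with 978 without both heart-muscle libraries. The replicate numbers did not pair the samples (12 same-numbered pairs, correlations of deviations -0.0633 to 0.102, 1 over 0.1); a fit with replicate block gave 6 higher and 4 lower members in MCT-Vehicle against Control and 4 higher and 3 lower in MCT-Fer-1 against Control. A count minimum of 5 or 20 gave 53 or 45 members. Il24, Il25, Il12b, Il27 and Il5ra each had at least 1 library at or under the floor of 3 counts, so depth limits their values.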

Other observations

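Il13ra1, a chain of the IL-13 receptor, varied widely inside every group: it had 7.32, 5.85, 3.55 and 0.936 CPM in MCT-Fer-1, 1.45, 3.81, 8.27 and 1.99 CPM in MCT-Vehicle and 1.43, 4.04, 3.13 and 5.68 CPM in Control. Il22ra2, the soluble decoy receptor of IL-22, was 5.94 CPM in MCT-Vehicle replicate 2 and 0.892 to 1.19 CPM in the other MCT-Vehicle libraries, and its ligand Il22 had 0 counts in every library.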
